A study of Mus musculus with 6 samples.

Results

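Genes of the adrenergic and muscarinic receptor families were followed in kidney and ureter of newborn mice with and without Ahnak, a very large scaffold protein. The members were the 9 genes of the deposited gene table, out of 24532, that carry the symbols Adra1a, Adra1b, Adra1d, Adra2a, Adra2b, Adrb1, Adrb3, Chrm2 and Chrm3. Bulk RNA-seq had been performed on tissue at postnatal day 1 (PN1), with 2 libraries of Ahnak KO kidney, 2 of WT kidney, 1 of Ahnak KO ureter and 1 of WT ureter. The KO mice carried a disruption of Ahnak exon 5 and no other allele or agent was named for any group. Per the study's methods, RNA of a few kidneys or ureters was taken and biological replicates were made, but neither the number of animals behind a library nor their sex is given. The p-values therefore measure the spread between these libraries. The sample titles number the ureter libraries as further kidney replicates, while the source labels and the columns of the table name them as ureter, and the ureter group was used here.

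Adrenergic receptors answer noradrenaline and adrenaline, and muscarinic receptors answer acetylcholine. The alpha1 receptors couple to Gq and raise cell calcium through phospholipase C, alpha2 receptors couple to Gi and lower cyclic AMP, and beta receptors couple to Gs and raise it. Among muscarinic receptors the M2 type couples to Gi and the M3 type to Gq. In the ureter, alpha1 receptors and muscarinic receptors are known for contraction of the smooth muscle and beta receptors for its relaxation, while in the kidney adrenergic receptors act on vessels, tubules and renin release.

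Sequences are shown for Adrb1, which the study measured by qPCR, and for Adra2b. Neither passed a test of genotype after adjustment in these libraries. Adrb1, the beta1 receptor, lies at chr19:56722199-56733113 on the plus strand (GRCm38, GENCODE M21), and the study's qPCR primers for it fall in the coding part of the single exon of its coding transcript. The 82-base product spans chr19:56722995-56723076, within a coding region from 56722372 to 56723769.

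Adrb1 forward primer: ctgctacaacgaccccaagt
Adrb1 reverse primer: cacgtagaaggagacgacgg

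Adra2b, the alpha2B receptor, lies at chr2:127363208-127367221 on the plus strand, and each of its coding transcripts has 1 exon. The 250 bases before the RefSeq start of both genes (GRCm38.p6, plus strand) are given next, for Adrb1 at chr19:56721867-56722116 and for Adra2b at chr2:127362929-127363178. Capitals mark the GC box, GGGCGG or its reverse complement CCGCCC.

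Adrb1 upstream: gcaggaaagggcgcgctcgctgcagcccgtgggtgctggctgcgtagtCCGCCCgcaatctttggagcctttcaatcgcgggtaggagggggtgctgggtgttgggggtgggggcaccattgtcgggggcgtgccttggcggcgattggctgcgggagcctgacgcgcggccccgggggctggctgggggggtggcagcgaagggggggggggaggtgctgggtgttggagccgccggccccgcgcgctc
Adra2b upstream: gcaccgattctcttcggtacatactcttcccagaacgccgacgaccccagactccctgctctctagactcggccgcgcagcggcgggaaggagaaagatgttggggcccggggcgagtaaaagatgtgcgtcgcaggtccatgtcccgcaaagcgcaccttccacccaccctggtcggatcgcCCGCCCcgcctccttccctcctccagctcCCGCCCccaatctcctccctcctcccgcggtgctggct

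The Adrb1 window held 1 GC box and the Adra2b window held 2, and 32.7% of 32851 windows of the same length held at least 1. Each window held 1 CCAAT box (CCAAT, either strand), and 33.8% of all windows held at least 1. Neither held TATAAA on either strand, which 12.4% of windows did. The GC content was 74.0% for Adrb1 and 66.0% for Adra2b against a median of 52.4% over all windows. A motif match is a description of the letters only. RefSeq windows were found for 6 of the 9 receptors.

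The libraries held 55744703 to 66095616 counts in kidney, 36410246 in KO ureter and 54985927 in WT ureter. A limit of 3 counts in a library stood for 0.0421 to 0.0505 CPM in kidney, 0.101 CPM in KO ureter and 0.0583 CPM in WT ureter. CPM here is the count scaled to library size with TMM factors from all 6 libraries. Ahnak itself stood at 139 and 130 CPM in KO kidney, 183 and 189 CPM in WT kidney, 635 CPM in KO ureter and 727 CPM in WT ureter. It was lower in each KO library than in the WT libraries of its tissue, by a log2 difference of -0.47 in kidney (SE 0.0961, unadjusted p = 0.00265, edgeR adjusted p = 0.9999) and only by a ratio of 0.874 in ureter. The table counts whole genes, so reads of the disrupted exon could not be looked at alone. The source of the Ahnak counts in the KO libraries was not tested. The summed CPM of 10 smooth muscle markers was 825 to 964 in kidney, 8347 in KO ureter and 9755 in WT ureter, and that of 8 urothelium markers was 58.2 to 65.7, 7756 and 6853. All smooth muscle and urothelium markers were above 0 in both ureter libraries. The 5 proximal tubule markers summed to 638 to 993 CPM in kidney and to 6.49 and 3.92 in KO and WT ureter, so the source labels and not the titles matched the markers. The libraries that stood apart were KO kidney replicate 1 and KO ureter. Xist had 176348 counts in KO kidney replicate 1 and 17 to 36 elsewhere, and Rn45s, a ribosomal RNA precursor, took 8.06% of the counts of KO ureter against 0.496% to 0.632% of the others.

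**Figure D1:**
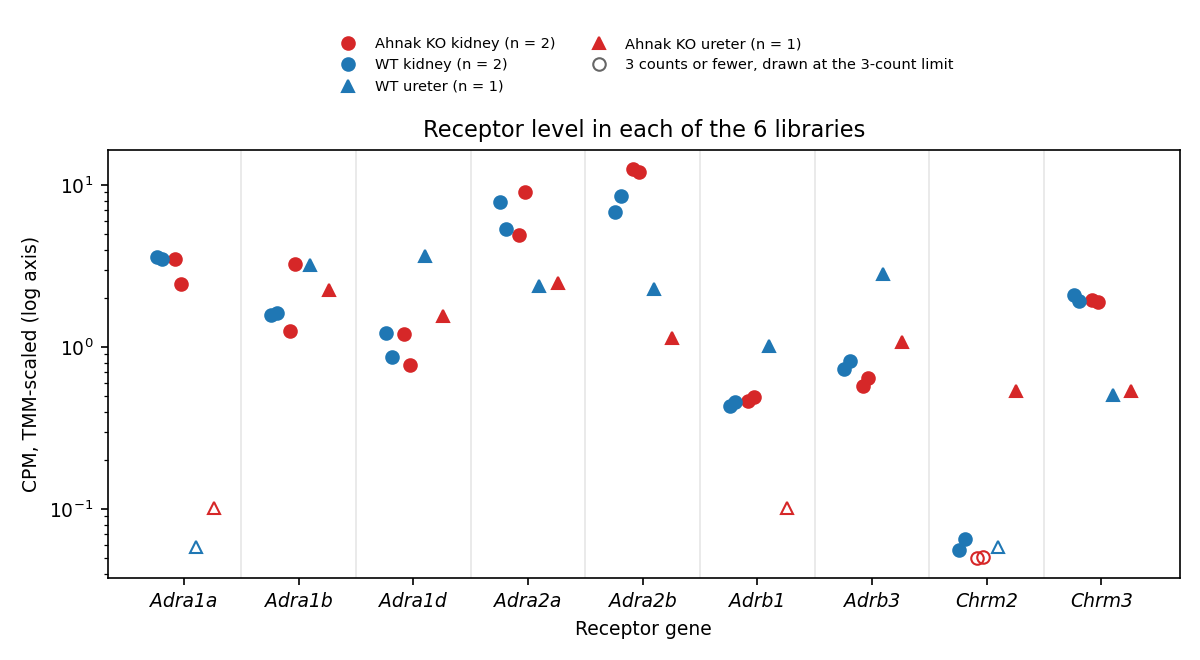
CPM of the 9 receptors in each library on a log axis, with circles for kidney and triangles for ureter, red for Ahnak KO and blue for WT. Open symbols stand for 3 counts or fewer and are drawn at the CPM of 3 counts. Adra1a, Adra2a, Adra2b and Chrm3 lay higher in all 4 kidney libraries than in both ureter libraries.

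The first comparison asked how the receptors differed between kidney and ureter, with genotype as a term in an edgeR quasi-likelihood fit of all 6 libraries. Adra1a, Adra2a, Adra2b and Chrm3 were higher in kidney, none passed the test in the other direction, and the remaining 4 of the 8 receptors tested did not pass. Over all 16873 genes tested, 23.7% were higher and 21.4% were lower in kidney at the same adjusted p under 0.05, 45.0% in all. The 4 receptors had all kidney libraries above both ureters, as did 32.8% of all genes tested. For 2 receptors, Adrb3 and Adra1d, all kidney libraries lay below both ureters, as for 28.1% of the genes. Chrm2 had too few counts for the filter of this fit. In bulk tissue, fewer cells of a type and less RNA per cell cannot be told apart.

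Among the alpha1 receptors, Adra1a set the tissues apart most. It had 212 and 145 counts in KO kidney, 256 and 214 in WT kidney, 2 in KO ureter and 0 in WT ureter, which is 2.44 to 3.596 CPM in kidney against at or under the 3-count limit in both ureters. No kidney library came near the ureter libraries. The summed counts were 827 in kidney and 2 in ureter, a ratio of 133 after scaling (95% exact interval 36.8 to 1102, counting error only). edgeR gave Adra1a an adjusted p of 0.00181.

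Adra1b, another alpha1 receptor, had 1.26 and 3.27 CPM in KO kidney, 1.59 and 1.62 CPM in WT kidney, 2.25 CPM in KO ureter and 3.21 CPM in WT ureter. The tissues overlapped because KO kidney replicate 2 lay above both ureters. The fitted log2 difference, kidney minus ureter, was -0.53 (SE 0.504, edgeR adjusted p = 0.430).

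Adra1d, also an alpha1 receptor, had 1.21 and 0.774 CPM in KO kidney, 1.22 and 0.869 CPM in WT kidney, 1.55 CPM in KO ureter and 3.63 CPM in WT ureter. Every kidney library lay below both ureters, with the WT ureter far above the rest. The log2 difference of -1.26 (SE 0.488) had an unadjusted p of 0.0387 and an adjusted p of 0.0770 in edgeR. With the WT libraries alone it was -1.79, with adjusted p = 0.0221 in edgeR, and with the KO libraries alone it was -0.64. Adra1d overlaps Gm14285, a gene on the other strand.

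The alpha2 receptors were both higher in kidney. Adra2b had 12.5 and 12.1 CPM in KO kidney, 6.77 and 8.51 CPM in WT kidney, 1.14 CPM in KO ureter and 2.29 CPM in WT ureter. The lowest kidney library, WT replicate 1, was still above both ureters. The level was 9.97 ± 2.79 CPM in kidney (SD, n = 4) and 1.72 ± 0.813 CPM in ureter (SD, n = 2), and the fitted log2 difference was 2.46 (SE 0.439, 5.51-fold, edgeR adjusted p = 0.00537). It was 1.74 with the WT libraries alone and 3.43 with the KO libraries alone.

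Adra2a, the alpha2A receptor, which also acts as the presynaptic brake on noradrenaline release, had 4.89 and 9.09 CPM in KO kidney, 7.87 and 5.33 CPM in WT kidney, 2.49 CPM in KO ureter and 2.37 CPM in WT ureter. The kidney libraries spread widely, but the lowest exceeded both ureters. The log2 difference was 1.48 (SE 0.363, 2.796-fold, edgeR adjusted p = 0.0175), with 1.48 in WT and 1.49 in KO libraries alone. The call was lost, with adjusted p between 0.0503 and 0.0905, without KO ureter, without WT ureter, without WT kidney replicate 1 or with the KO libraries alone.

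Among the beta receptors, Adrb3 had 0.579 and 0.640 CPM in KO kidney, 0.730 and 0.820 CPM in WT kidney, 1.08 CPM in KO ureter and 2.84 CPM in WT ureter. Both ureters lay above all kidneys. The log2 difference was -1.39 (SE 0.506), with an unadjusted p of 0.0316 and an adjusted p of 0.0655 in edgeR. Adrb3, known as the beta receptor of fat and of bladder and ureter muscle, was also -1.86 in the WT libraries (adjusted p = 0.0249 in edgeR) and -0.82 in the KO libraries. It overlaps Gm45470 on the other strand.

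Adrb1, known for renin release in the kidney and for heart rate, had 28 and 29 counts in KO kidney, 31 and 28 in WT kidney, 0 in KO ureter and 52 in WT ureter. The kidneys lay between the ureters, at 0.435 to 0.488 CPM against 1.01 CPM in WT ureter. The fitted log2 difference of 0.46 (SE 1.49, edgeR adjusted p = 0.823) changed its sign with the ureter library used. It was -1.17 with the WT libraries alone, and without WT ureter the kidneys were called higher (edgeR adjusted p = 0.0433), against a single library listed at 0.

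Of the muscarinic receptors, Chrm3, which drives contraction of urinary smooth muscle, had 1.95 and 1.89 CPM in KO kidney, 2.11 and 1.92 CPM in WT kidney, 0.538 CPM in KO ureter and 0.505 CPM in WT ureter. The kidney libraries were close to each other and all above both ureters. The log2 difference was 1.91 (SE 0.450, 3.76-fold, edgeR adjusted p = 0.0153). The call was lost without WT kidney replicate 1 (adjusted p = 0.0566), without WT kidney replicate 2 (0.0571) and with the KO libraries alone (0.117). The ureter values rest on 16 and 26 counts, and Chrm3 overlaps 2 genes on the other strand.

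Chrm2, known as the more abundant muscarinic type of smooth muscle, had 0 counts in both KO kidneys, 4 in each WT kidney, 16 in KO ureter and 0 in WT ureter. KO ureter was the highest library, and WT ureter was listed at 0. The kidney ratio of summed counts to ureter was 0.161 (95% exact interval 0.0597 to 0.399, counting error only), which rests on KO ureter alone, since in WT the kidneys had the counts and the ureter had none. Chrm2 entered the edgeR fit only under alternatives and passed in none, with adjusted p = 0.406 without the filter, 0.0507 without WT ureter and 0.0739 with the KO libraries alone. A gene on the other strand, 9330158H04Rik, overlaps Chrm2.

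**Figure D2:**
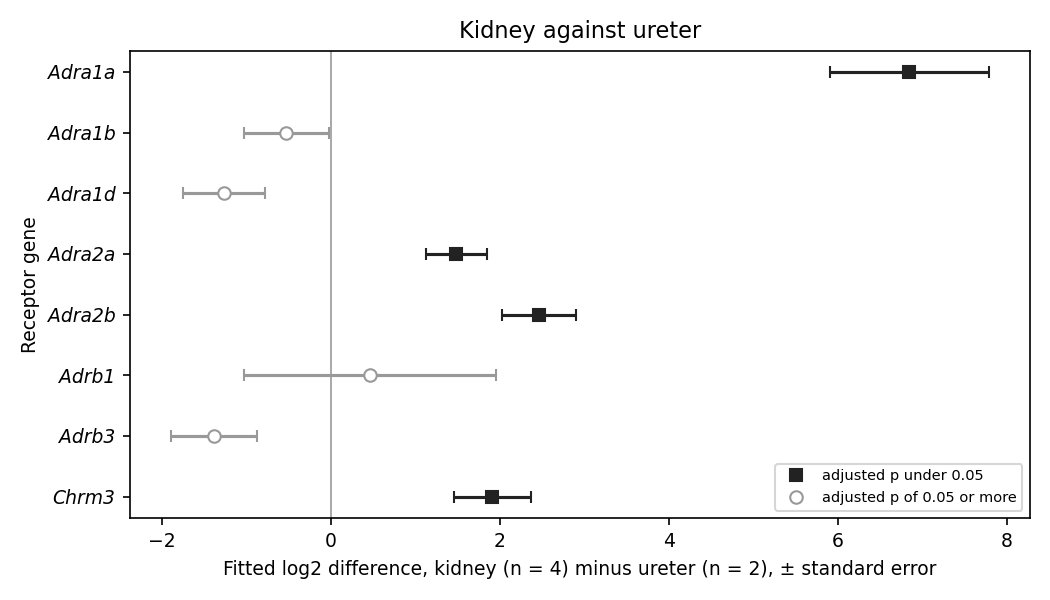
Fitted log2 difference between kidney (n = 4) and ureter (n = 2) for the 8 receptors tested, with the standard error as the bar. Filled squares passed an adjusted p of 0.05. Adra1a, Adra2a, Adra2b and Chrm3 lie to the right of 0, and the Adra1a value depends on the prior count because its ureter counts were 2 and 0.

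The levels of different receptors were compared only per transcript length, as the authors' TPM. In kidney (n = 4) the order was Adra2b at 5.39 ± 1.47 TPM, Adra2a at 3.80 ± 1.07, Adra1a at 1.71 ± 0.332, Chrm3 at 1.32 ± 0.0831, Adra1b at 1.26 ± 0.573, Adra1d at 0.905 ± 0.212, Adrb3 at 0.523 ± 0.0830, Adrb1 at 0.391 ± 0.0117 and Chrm2 at 0.0322 ± 0.0374 (SD). The ranges of Adra2b and Adra2a overlapped, as did those of each neighbouring pair from Adra1a through Chrm3 and Adra1b to Adra1d. The alpha2 receptors were thus the most abundant receptors of the 9 in kidney, and no range of another receptor reached theirs.

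In WT ureter the order was led by Adra1d at 2.64 TPM, Adrb3 at 1.77 and Adra1b at 1.74. Adra2a followed at 1.09, Adra2b at 1.02, Adrb1 at 0.705 and Chrm3 at 0.278 TPM, and Adra1a and Chrm2 were listed at 0. In KO ureter Adra1b led at 1.06 TPM, with Adra2a at 1.0, Adra1d at 0.988 and Adrb3 at 0.588 TPM. With 1 library of each, no spread between ureters of a genotype could be given.

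**Figure D3:**
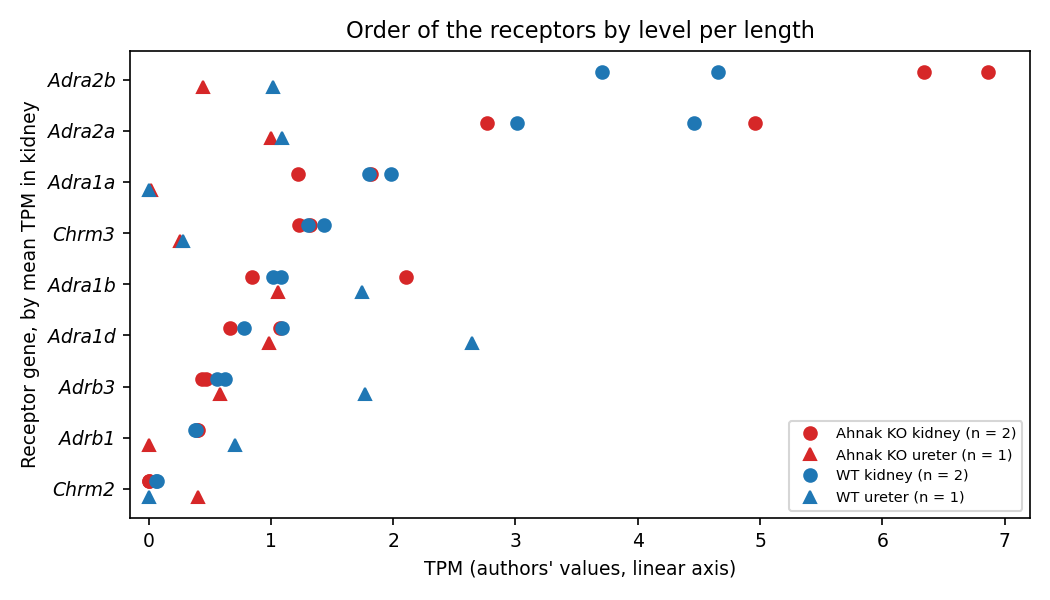
TPM of the 9 receptors in every library, ordered by the kidney mean, on a linear axis. The alpha2 receptors lead in kidney (circles), while Adra1d leads in WT ureter (blue triangle) at 2.64 TPM.

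The next comparison asked whether the receptors differed between KO and WT kidney, with 2 libraries each. None of the 8 receptors tested passed in edgeR, each with an adjusted p of 0.9999, and only 0.0121% of the 16481 genes tested were called in either direction, 2 genes in all. At an unadjusted p under 0.05 there was 1 receptor, Adra2b, against 1.38% of all genes. DESeq2 called none of the 8 receptors either.

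Adra2b stood at 12.3 ± 0.350 CPM in KO kidney and 7.64 ± 1.23 CPM in WT kidney (SD, n = 2 each). Both KO libraries were above both WT libraries. The log2 fold change was 0.69 (SE 0.202, 1.61-fold, unadjusted p = 0.0138, edgeR adjusted p = 0.9999), and it was between 0.49 and 0.86 under the alternatives, with adjusted p of at least 0.704. Without KO kidney replicate 1, the library with high Xist, it was 0.66. Genes with both KO libraries above both WT libraries were 12.8% of those tested, and genes with both below were 13.5%.

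The other receptors differed less than their errors. Adra1b had a log2 fold change of 0.50 (SE 0.528), which rested on KO replicate 2 and was -0.36 without it. Adra1a, at 2.97 ± 0.752 CPM in KO and 3.55 ± 0.0603 CPM in WT kidney (SD, n = 2 each), gave -0.26 (SE 0.318), and Adrb3, at 0.609 ± 0.0432 and 0.775 ± 0.0635 CPM, gave -0.34 (SE 0.581). Both KO libraries lay below both WT libraries for these genes. Adrb1, with both KO libraries slightly above both WT libraries, gave 0.09 (SE 0.684), Adra2a 0.09 (SE 0.364), Adra1d -0.08 (SE 0.538) and Chrm3 -0.07 (SE 0.356). Chrm2 had 0 counts in both KO kidneys and 4 in each WT kidney, which puts it at least 1.22-fold lower in KO against a limit of 3 counts per library.

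Some of the spread ran across the genotypes. Adra2a was high in KO replicate 2 and WT replicate 1, at 9.09 and 7.87 CPM, and low in KO replicate 1 and WT replicate 2, at 4.89 and 5.33 CPM. The 5 proximal tubule markers ran the other way, summing to 639 and 638 CPM in the former libraries and to 989 and 993 CPM in the latter. Whether tissue composition had a part in the Adra2a values was not tested. The 2 juxtaglomerular markers, of the renin-producing cells, summed to 429 and 134 CPM in KO and to 194 and 283 CPM in WT kidney, while Adrb1 stayed at 28 to 31 counts.

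The ureter comparison had 1 library of each genotype, so differences between these libraries have no replicate check. Of the 8 receptors compared, 2 were past a ratio of 2 lower in KO, Adrb1 and Adrb3, and none was past it higher, on the log2 scale of CPM + 0.5. Among all 16117 genes compared, 5.75% were past it lower and 4.5% higher, with a median log2 ratio of -0.0156. Scaling was by TMM over the ureter pair, and the WT library was 1.73 times deeper after scaling. A test was possible only by assuming that the ureter libraries vary like the kidney libraries, in the fit of all 6 libraries as 4 groups. None of the 9 receptors then passed in edgeR, where 0.279% of 17557 genes were called higher and 0.29% lower in KO, 0.57% in all, and none passed in DESeq2. At an unadjusted p under 0.05 there were 3 receptors in edgeR, Adra1a, Adra2b and Adrb1, against 18.5% of all genes.

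Adrb1 had 0 counts in KO ureter and 52 in WT ureter, 0.883 CPM in the pair scaling, so it was at least 10.01-fold lower in KO when a count of 0 is taken as at most 3 counts. The 95% exact interval of the ratio, which covers counting error only, began lower, at 7.85-fold. With the kidney spread assumed, its adjusted p was 0.130 in edgeR and 0.0576 in DESeq2. The study had picked Adrb1 on these libraries, so the value is a description. The study also measured Adrb1 by qPCR in ureter and reported it lower in Ahnak KO. Of 538 genes with 40 to 65 counts in WT ureter, 96 (17.8%) were listed at 0 in KO ureter, compared with 2.202% of 772 genes with 110 to 190 counts. How the counts were made is not settled, and an entry of 0 does not show that no read came from the gene.

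Adrb3 had 32 counts in KO and 146 in WT ureter, a ratio of WT to KO of 2.63 (95% exact interval 1.79 to 3.99, counting error only) and a log2 ratio of -1.05. Adra1d had 46 and 187 counts, with a ratio of 2.35 (1.69 to 3.31) and a log2 ratio of -0.99. Adra2b had 34 and 118 counts, with a ratio of 2.003 (1.36 to 3.03) and a log2 ratio of -0.74. The intervals of Adrb3, Adra1d and Adra2b lay apart from a ratio of 1, but they leave out the spread between libraries. This did not hold for a whole class, since Adra2a, also an alpha2 receptor, had a KO to WT ratio of 1.05. The share of all genes that differ by more than counting error was not computed. Adra1b, with 67 and 165 counts, had a ratio of 1.42 (1.06 to 1.92), and with all counts halved the interval reached below 1, from 0.947 to 2.22. With the kidney spread assumed, the edgeR adjusted p was 0.357 for Adrb3, 0.388 for Adra1d, 0.227 for Adra2b and 0.797 for Adra1b.

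Adra2a and Chrm3 lay close to a ratio of 1. Adra2a had 74 counts in KO and 122 in WT ureter, a KO to WT ratio of 1.05 (0.776 to 1.41), and Chrm3 had 16 and 26 counts, a ratio of 1.07 (0.534 to 2.06). Chrm2 went the other way, with 16 counts in KO and 0 in WT ureter, at least 9.24-fold higher in KO by the same limit of 3 counts, with an exact interval from 6.68-fold and an edgeR adjusted p of 0.299 with the kidney spread assumed. Adra1a, with 2 and 0 counts, was at or under the limit in both libraries and was not compared.

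Some striated and cardiac muscle markers also differed between the ureter libraries. Of 12 striated and cardiac muscle markers compared, 8 were past a ratio of 2 lower in KO ureter, with a list median log2 ratio of -1.26, and the list summed to 379 CPM in KO and 665 CPM in WT ureter against 10.7 to 12.9 CPM in kidney. Actc1, cardiac actin, had 1480 counts in KO and 10430 in WT ureter, and Nppa, a marker of the heart atrium, was at 0 in every library. None of 10 smooth muscle markers was past a ratio of 2 in either direction. The 8 fat markers summed to 683 CPM in KO ureter, 419 CPM in WT ureter and 328 to 423 CPM in kidney, so WT ureter lay within the kidney range. Fabp4 made up 549 CPM of this sum in KO ureter, 274 CPM in WT ureter and 323 to 418 CPM in kidney. Of 6 fat markers compared, 3 were past a ratio of 2 higher in KO and 0 lower. Adipoq, the adiponectin gene, had 170 counts in KO and 18 in WT ureter, Plin1 had 35 and 0, and Ucp1, the defining gene of brown fat, had 0 and 10. The part of these cells in the receptor values was not tested.

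**Figure D4:**
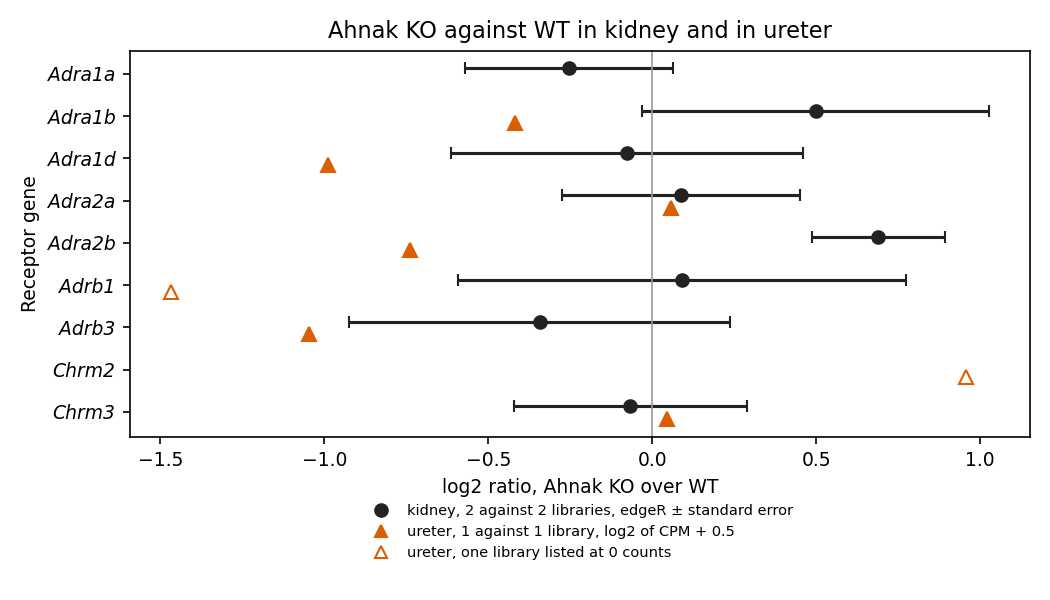
log2 ratio of Ahnak KO over WT for each receptor, in kidney (circles, edgeR, 2 against 2 libraries, bar for the standard error) and in ureter (triangles, 1 against 1 library, CPM + 0.5). Open triangles mark a receptor listed at 0 in one ureter library. Adra2b lies at 0.69 in kidney and -0.74 in ureter.

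Whether the KO effect differed between the tissues was tested by the genotype by tissue term of edgeR, in which the single ureter libraries are assumed to vary like the kidney libraries. None of the 9 receptors passed, and 0.108% of 17557 genes did, 0.0513% with the KO effect higher in ureter and 0.057% lower. At an unadjusted p under 0.05 there were 4 receptors, against 12.4% of all genes. For Adra2b the term was -1.70 on the log2 scale (SE 0.422, unadjusted p = 0.00734, adjusted p = 0.224). The adjusted p was 0.239 for Adrb1, 0.324 for Chrm2, 0.354 for Adra1a, and from 0.639 to 0.9999 for the others.

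For each receptor the genes whose log2(CPM + 0.5) followed it most closely over the 6 libraries were sought among 14586 genes of at least 1 CPM on average. With 6 points of which 4 are kidney, many genes come close to any receptor, so the likeness is a description. Pax2, a transcription factor of the developing kidney, and Tchh were nearest to Chrm3 (r = 0.9997 and 0.9995), and Pwp1 and Arhgap24 to Adra1a (r = 0.9996 and 0.9991). Zfp788 and Itprip were nearest to Adra2b (r = 0.995 and 0.993), Lmbr1l and Ptov1 to Adra2a (r = 0.998 and 0.997), and Dact1 and Klhdc1 to Adra1d (r = 0.997 and 0.995). Adrb1 was followed by Gabbr1 and Neat1 (r = 0.997 and 0.993), Adrb3 by Pdap1 and Pxmp4 (r = 0.999 for both), and Adra1b by Zfp706 and Stoml1 (r = 0.997 and 0.961).

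The other genes of receptor signalling were taken as 7 lists. Of 75 genes tested between the tissues, 17 were higher and 23 lower in kidney, against 23.7% and 21.4% of all genes tested, with a median log2 difference of -0.17 against 0.076 over all genes tested. In KO against WT kidney 0 of 72 were called, at a median of 0.016 against -0.0041 over all genes tested. In ureter 7 of 75 were past a ratio of 2 lower in KO and 1 higher, against 5.75% and 4.5% of all genes. The counts of each list given next are to be read against the same 23.7% higher and 21.4% lower in kidney, and nothing particular to a list was tested.

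Of 10 G protein alpha subunits, 2 were higher and 5 lower in kidney, beside 23.7% and 21.4% of all genes. Gna15, a Gq-type subunit, was lower in kidney by a log2 difference of -6.22 and Gnao1, the Go subunit, of -1.94, while Gna14, also of the Gq class, was higher by 1.03 and Gnai1, a Gi subunit, by 0.82.

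In the cyclic AMP arm, 6 of 21 genes were higher and 4 lower in kidney. The adenylyl cyclase Adcy1 was higher by 3.26 on the log2 scale and Adcy5 differed by -1.48. Pde4c, a phosphodiesterase that breaks down cyclic AMP, had 1442 to 2583 counts in kidney, 0 in KO ureter and 34 in WT ureter. Adcy8 had 32 to 53 counts in kidney and was listed at 0 in both ureters. In the phospholipase C arm, 2 of 11 were higher and 3 lower. Plcb1 was higher in kidney by 1.54 and Plcb2 by 1.15, whereas Plcb4 differed by -1.97 and Itpr3, a calcium release channel, by -0.89.

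Among 13 genes of receptor desensitization, 3 were higher and 6 lower in kidney, beside 23.7% and 21.4% of all genes. Rgs2, which shortens Gq signals, had 20.9 to 31.5 CPM in kidney, 215 CPM in KO ureter and 320 CPM in WT ureter, a log2 difference of -3.39 (edgeR adjusted p = 8.0e-05). Akap12, a scaffold of beta receptors, differed by -1.40, and the receptor kinase Grk4 by 1.51.

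Transmitter synthesis genes had few counts in part. Th, which makes the noradrenaline precursor, had 0 to 7 counts in kidney, 29 in KO ureter and 12 in WT ureter, and Chat, which makes acetylcholine, had 22 counts in KO ureter and 0 in every other library. Of 11 genes of noradrenaline supply and removal, 2 were higher in kidney and 3 lower, among them Slc18a1 at 3.92 and Maob at -2.35 on the log2 scale. Pnmt, which makes adrenaline, had 172 to 287 counts in kidney and was listed at 0 in both ureters. Ache, which breaks down acetylcholine, was higher in kidney by 3.80 on the log2 scale, and Bche differed by -1.53, among 5 genes of acetylcholine supply and removal of which 2 were higher and 1 lower.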

How the data were processed

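Bulk RNA-seq of mouse kidney and ureter at PN1 was analysed. The authors deposited 1 table of whole-number read counts, FPKM and TPM per gene for each library, which they computed from trimmed and aligned reads. The deposited counts are not normalized, and the deposited FPKM and TPM values were scaled by the authors to gene length and library size. The submitters' processing notes list FastQC 0.11.7, Trimmomatic 0.38, HISAT2 2.1.0, StringTie 1.3.4b, edgeR and R 3.6.1 with the mm10 build. The study's methods name Cutadapt, STAR, Cufflinks and GRCm39 instead, and which of them made the table is not settled. The kit was stranded, and strand in counting is not given in the sources used here. Between 54.0% and 59.6% of the counts from 10 to 200 were even numbers, and intervals would be too narrow if single fragments were counted more than once, which was not tested.

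Counts were tested with the quasi-likelihood test of edgeR 4.0.16 in R 4.3.3 (TMM factors, genes kept by filterByExpr, Benjamini-Hochberg adjustment over all genes, threshold 0.05). Kidney against ureter had genotype and tissue as terms (3 residual degrees of freedom), and KO against WT kidney had genotype alone (2). Standard errors are the log2 difference divided by the root of F. The common dispersion in kidney was 0.0540, so replicates differed beyond sampling noise. The ureter libraries were compared by log2 of CPM + 0.5, for genes with at least 10 counts in either library. A test of this pair that assumes the spread of the kidney libraries, and intervals with the counts halved, were added after the data were seen. Intervals are 95% exact and cover counting error only. Alternatives used DESeq2 1.42.0, limma 3.58.1 on FPKM, other filters and pseudocounts, a replicate block and each library left out. The fits were checked on simulated counts, with changes placed in better-counted genes and a smaller spread than in the kidney libraries. That check does not cover receptors with few counts. Levels, ratios and motifs were computed with numpy 2.4.6, scipy 1.17.1 and pandas 2.3.3, run in Python 3.11.15.

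The receptors, lists and tests were chosen with earlier results of these data known. Named genes were the 9 receptors, Ahnak, the 2 genes nearest by Pearson correlation to each of the 8 receptors tested between tissues, and in each pathway list the called genes with the largest differences, up to 2 in each direction. Pnmt, Adcy8, Pde4c, Th, Chat, Xist, Rn45s and the marker genes were named also for their low or unusual counts. RefSeq windows and the study's primer list gave the sequences. The values of 1 gene in the pathway lists are not reported here.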

Additional observations from a re-analysis of the deposited data

Results flagged for a closer look

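Adra1a had 2.44 CPM in KO kidney replicate 2, while the other 3 kidney libraries lay between 3.50 and 3.596 CPM, and its gap to the nearest was large for a group of 4. The cutoff for calling a gap large is passed by chance in about 1 in 20 groups, and 9 receptors were examined. The group of 4 pooled both genotypes.

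KO against WT ran in opposite directions in kidney and ureter for Adrb1, Adra2b and Chrm2. The share of all genes that do so was not computed. Both KO kidneys lay above both WT kidneys for 12.8% of the genes tested in kidney and below for 13.5%. Adrb1 was slightly higher in both KO kidneys and at least 10.01-fold lower in KO ureter. Adra2b was higher in both KO kidneys and had a log2 ratio of -0.74 in ureter. Chrm2 had 0 counts in both KO kidneys and 4 in each WT kidney. In KO ureter it was 9.24-fold higher at the 3-count limit, with an exact interval from 6.68-fold, or from 2.96-fold with the counts halved. The genotype by tissue term of edgeR gave adjusted p = 0.239 for Adrb1, 0.224 for Adra2b and 0.324 for Chrm2, so the differences did not pass.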

How the results depend on the processing

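The 4 receptors higher in kidney became 2 with the KO libraries only and 2 to 4 when each library was left out, the lowest without WT kidney replicate 1. The count lower in kidney was 0, and it was 2 (Adrb3 and Adra1d) with the DESeq2 Wald test, with at least 10 counts in every library, with tissue as the only term and with the WT libraries only. No receptor was called between KO and WT kidney under any alternative run. In ureter, 1 receptor (Chrm2) was past a ratio of 2 higher in KO with a pseudocount of 0.1 CPM and with FPKM + 0.1, against 0. With the counts halved, the exact ureter interval of Adra1b came to include a ratio of 1, and no other receptor changed in this respect. These intervals cover counting error only, and the share of all genes with an interval apart from 1 was not computed. With the kidney spread assumed, no receptor passed in ureter. Signs that changed were those of Adra1b between tissues, 0.0099 with the KO libraries only and -0.998 to 0.011 when libraries were left out, and of Adrb1, -0.17 with tissue as the only term, -1.17 with the WT libraries only and -1.17 to 7.75 when libraries were left out. Between KO and WT kidney, leaving out libraries gave -0.36 to 1.03 for Adra1b, -0.43 to 0.20 for Adra1d and -0.44 to 0.47 for Adra2a, and the genotype by tissue term of Adra2a ran from -0.39 to 0.51. The cause of these changes was not tested.

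With the replicate block in KO against WT kidney, 0 receptors and 0 genes were called, against 2 genes without it, and Adra2b was 0.70. The labels do not say that replicate numbers pair the libraries, and deviations of same-numbered libraries correlated at -0.30 over 14299 genes. The crossed block, chosen after seeing the data, called 0 genes higher and 1 lower. Over all genes, KO against WT kidney gave 25 higher and 19 lower in DESeq2 and 0 and 2 in edgeR. Few counts limit what can be said of Adrb1, Chrm2 and Adra1a in ureter, where a library held 0 to 2 counts. The reason for these low counts was not tested.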
